A study of Rattus norvegicus with 12 samples.

Results

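The genes described here encode 36 proteins of sterol and fatty acid synthesis, chosen by symbol from a deposited table of 30045 genes. They comprise 17 enzymes that build cholesterol from acetyl-CoA, 14 enzymes that make fatty acids and join them to glycerol, and 5 proteins that sense sterols or control these enzymes. RNA sequencing gave their messenger RNA levels in lung pieces of 12 male F344 rats, bought at 3 months of age and kept 3 per cage. In whole-body chambers, 6 rats inhaled air and 6 inhaled an aerosol of crystalline nanocellulose (CNC), nanometre-sized rods of cellulose. The CNC aerosol was held at 20 mg/m3 for 6 hours a day on 5 days a week, exposure lasted 14 days in all, and the rats were killed 1 day later. The design asks how the lung responds to repeated CNC inhalation, at a single concentration and a single time.

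Cells make cholesterol through the mevalonate pathway, in which acetyl-CoA is built up to isoprenoids, then to squalene, which is closed into lanosterol and trimmed to cholesterol. Fatty acid synthesis draws on the same acetyl-CoA and on NADPH. Both branches are switched on by sterol regulatory element binding proteins (SREBPs), membrane-bound transcription factors. Scap escorts them out of the endoplasmic reticulum when membrane sterol is low, and Insig proteins hold them back when it is high. In lung, alveolar type 2 cells make fatty acids for surfactant phospholipid, and macrophages take up and store lipid.

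Of the 36 symbols, 35 were found in the table as written. The RefSeq gene table lists Scd as an older symbol of Scd2 and Scd1 as an older symbol of Scd, and the deposited table holds the rows Scd and Scd1. These rows are therefore called Scd2 (row Scd) and Scd (row Scd1) here, and all 36 genes had a row. Both encode stearoyl-CoA desaturases and are close copies, so how reads were divided between them is uncertain. Elovl6, an elongase of saturated fatty acids, had 0 to 3 counts per library, did not pass the count filter and was not detectable at this depth as changed or unchanged. The other 35 genes were tested.

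After CNC inhalation, 22 of these 35 genes rose and 0 fell, by edgeR's quasi-likelihood test with an adjusted p under 0.05. Of all 15019 genes tested, 13.2% rose, 11.4% fell and 24.6% changed in either direction. The rises were modest, with a largest fold of 1.78 (Dgat2) and a median log2 fold change over the 35 genes of 0.23, where the median over all tested genes was -0.0026. In 12 of the 35 genes every CNC rat lay above every air rat, which was so for 6.82% of all tested genes. Of the 22, 13 were sterol enzymes, 7 were enzymes of the fatty acid branch and 2 were Insig1 and Stard4. The transcripts of the SREBPs themselves and of Scap did not pass the test.

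**Figure D1:**
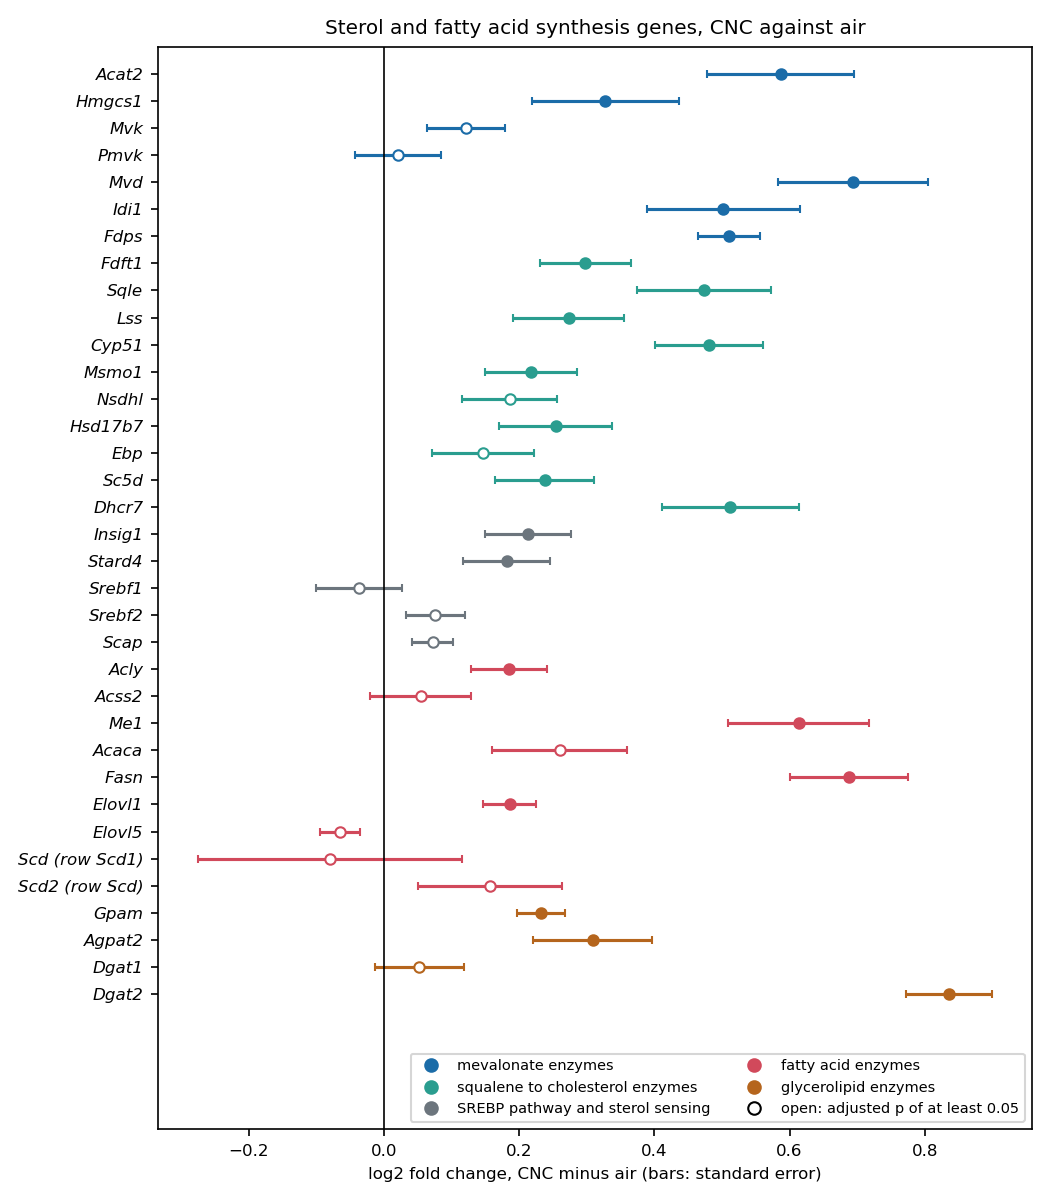
Log2 fold change of each tested gene, CNC minus air (x axis), with its standard error as the bar. Filled points have an adjusted p under 0.05. All 17 sterol enzymes lie to the right of 0, and Srebf1, Elovl5 and Scd (row Scd1) lie to the left with open points.

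Libraries held 8693259 to 16603697 counts over genes, and their sizes in the groups overlapped (8693259 to 16603697 in air, 9917387 to 14735245 in CNC). Levels are given as CPM, counts scaled to a common library size, so they compare rats within a gene and not genes with each other. The labels name no batch, and nothing in them says which rats shared a cage. In bulk lung, fewer cells of a type and less RNA per cell cannot be told apart. Markers of several cell types differed between the groups and are given beside the results they touch.

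In the first stretch of the pathway, from acetyl-CoA to farnesyl diphosphate, 5 of 7 enzymes rose, with a median log2 fold change of 0.50. Acat2, the cytosolic thiolase that joins acetyl-CoA units, ran from 3.92 to 5.93 CPM in air (median 4.74) and from 6.66 to 8.12 in CNC (median 7.21). The groups did not overlap, and the rise was 1.5-fold (log2 fold change 0.59 ± 0.11 SE, adjusted p = 0.000991). Hmgcs1 encodes the cytosolic HMG-CoA synthase of the next step. It ran from 57.6 to 74.2 CPM in air (median 68.4) and from 66.3 to 119 in CNC (median 81.5), a 1.25-fold rise (adjusted p = 0.0389). Here 5 of 6 CNC rats lay above the air range, and CNC replicate 5 stood at 119 CPM where the next rat had 84.0. The Hmgcs1 call was lost on leaving out air replicates 1, 4, 5 or 6 or CNC replicates 2 or 4 (adjusted p from 0.0551 to 0.0878).

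The kinases that follow did not pass the test. Mvk, mevalonate kinase, had a median of 14.9 CPM in air (14.3 to 15.7) and 16.3 in CNC (14.7 to 17.5), with adjusted p = 0.145. Pmvk, phosphomevalonate kinase, had medians of 17.3 and 17.8 CPM and a log2 fold change of 0.02 ± 0.06 (SE, adjusted p = 0.856). Mvd, which decarboxylates the product of Pmvk, had the largest rise of the sterol enzymes. It ran from 5.69 to 7.89 CPM in air (median 6.72) and from 8.73 to 13 in CNC (median 11.3), a 1.62-fold rise (log2 fold change 0.69 ± 0.11 SE, adjusted p = 0.000292).

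Idi1 and Fdps complete this stretch, and in both the groups were separate. Idi1, the isomerase that makes the reactive isoprenoid unit, ran from 19.5 to 32.4 CPM in air (median 30.1) and from 35 to 51.1 in CNC (median 39.1). Its rise was 1.42-fold (adjusted p = 0.00407). Fdps, farnesyl diphosphate synthase, stands at the branch point to sterols, ubiquinone and protein prenylation. It ran from 78.7 to 98.9 CPM in air (median 94.8) and from 127 to 135 in CNC (median 133), a 1.42-fold rise (log2 fold change 0.51 ± 0.05 SE, adjusted p = 2.17e-06). The 6 CNC rats were close together in Fdps, with an SD of 3.60 CPM around a mean of 132.

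In the second stretch, from squalene to cholesterol, 8 of 10 enzymes rose, with a median log2 fold change of 0.26. Fdft1, squalene synthase, commits the pathway to sterols. It ran from 45.7 to 57.2 CPM in air (median 55.8) and from 59.0 to 77.6 in CNC (median 65.1), with no overlap and a 1.23-fold rise (adjusted p = 0.00443). Sqle, squalene epoxidase, is a rate-limiting enzyme of the late pathway. It ran from 23.0 to 34.1 CPM in air (median 28.7) and from 35 to 51.7 in CNC (median 37.8), again with no overlap, a 1.39-fold rise (adjusted p = 0.00256). Lss closes the epoxide into lanosterol. Its range was 20.8 to 26.0 CPM in air (median 22.6) and 25.0 to 34.7 in CNC (median 27.0), so the groups overlapped slightly, and it rose 1.21-fold (adjusted p = 0.023, or 0.0528 without air replicate 1).

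Among the enzymes that trim lanosterol, Cyp51 and Dhcr7 rose most. Cyp51, the lanosterol demethylase, ran from 51.7 to 67.1 CPM in air (median 63.4) and from 69.4 to 94.8 in CNC (median 89.3), a 1.40-fold rise (log2 fold change 0.48 ± 0.08 SE, adjusted p = 0.000419). Dhcr7, the reductase of the last step to cholesterol, ran from 7.77 to 12.2 CPM in air (median 11.3) and from 12.8 to 16.5 in CNC (median 15.4), a 1.43-fold rise (adjusted p = 0.00167). In both genes all CNC rats lay above all air rats.

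Msmo1, Hsd17b7 and Sc5d rose by less, and their groups overlapped. Msmo1, the methylsterol oxidase, ran from 36.7 to 47.1 CPM in air (median 42.3) and from 44.8 to 57.8 in CNC (median 48), a 1.16-fold rise (adjusted p = 0.0282). Hsd17b7, which reduces the sterol ketone left after demethylation, ran from 8 to 10.5 CPM in air (median 8.86) and from 9.49 to 12.0 in CNC (median 10.8), a 1.19-fold rise (adjusted p = 0.0359). Sc5d is the sterol desaturase that acts just before Dhcr7. It ran from 29.5 to 38.8 CPM in air (median 33.4) and from 34.6 to 44.9 in CNC (median 38.3), a 1.18-fold rise (adjusted p = 0.0269). These calls lay near the threshold, and leaving out a rat ended them with a positive fold change in each such fit. The Msmo1 call was lost on leaving out air replicates 1 or 6 or CNC replicate 5 (adjusted p from 0.055 to 0.0659), with a log2 fold change of 0.17 to 0.20 against 0.22 with all rats. For Sc5d it was lost without air replicates 1, 2 or 4 or CNC replicates 1 or 5 (0.0509 to 0.0643), with 0.20 to 0.24 against 0.24. The Hsd17b7 call was lost without air replicates 1, 3, 5 or 6 or CNC replicates 1, 2, 4 or 5 (0.0534 to 0.0806), with 0.22 to 0.26 against 0.25.

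The other enzymes of the second stretch, Nsdhl and Ebp, did not pass. Nsdhl, a decarboxylating sterol dehydrogenase, had a median of 26.5 CPM in air (23.8 to 30.9) and 30.8 in CNC (26.9 to 33.5), with adjusted p = 0.0655. It passed without air replicate 2 or without CNC replicate 6 (adjusted p from 0.0226 to 0.0342). Ebp, a sterol isomerase, had medians of 19.0 and 20.3 CPM (adjusted p = 0.181).

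Certain rats stood at the edge of their group in many sterol enzymes. Air replicate 1 was the lowest air rat in 13 of the 17 enzymes, and CNC replicate 5 was the highest CNC rat in 11 of 17. CNC replicate 3 was the lowest CNC rat in 8. With the level of each gene taken relative to its air mean and averaged over the 17 enzymes, the air rats ran from -0.19 (replicate 1) to 0.13 (replicate 2) on the log2 scale. The CNC rats ran from 0.22 (replicate 3) to 0.51 (replicate 5). Without air replicate 1, 8 of the 17 enzymes passed in place of 13 (11.6% of all tested genes rose in that fit). Without both air replicate 1 and CNC replicate 5, a fit chosen after the levels were seen, 13 of the 35 genes rose (10.5% of all tested genes). Of the 17 sterol enzymes 8 passed, and the median log2 fold change over all 17 was 0.19 in place of 0.30.

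**Figure D2:**
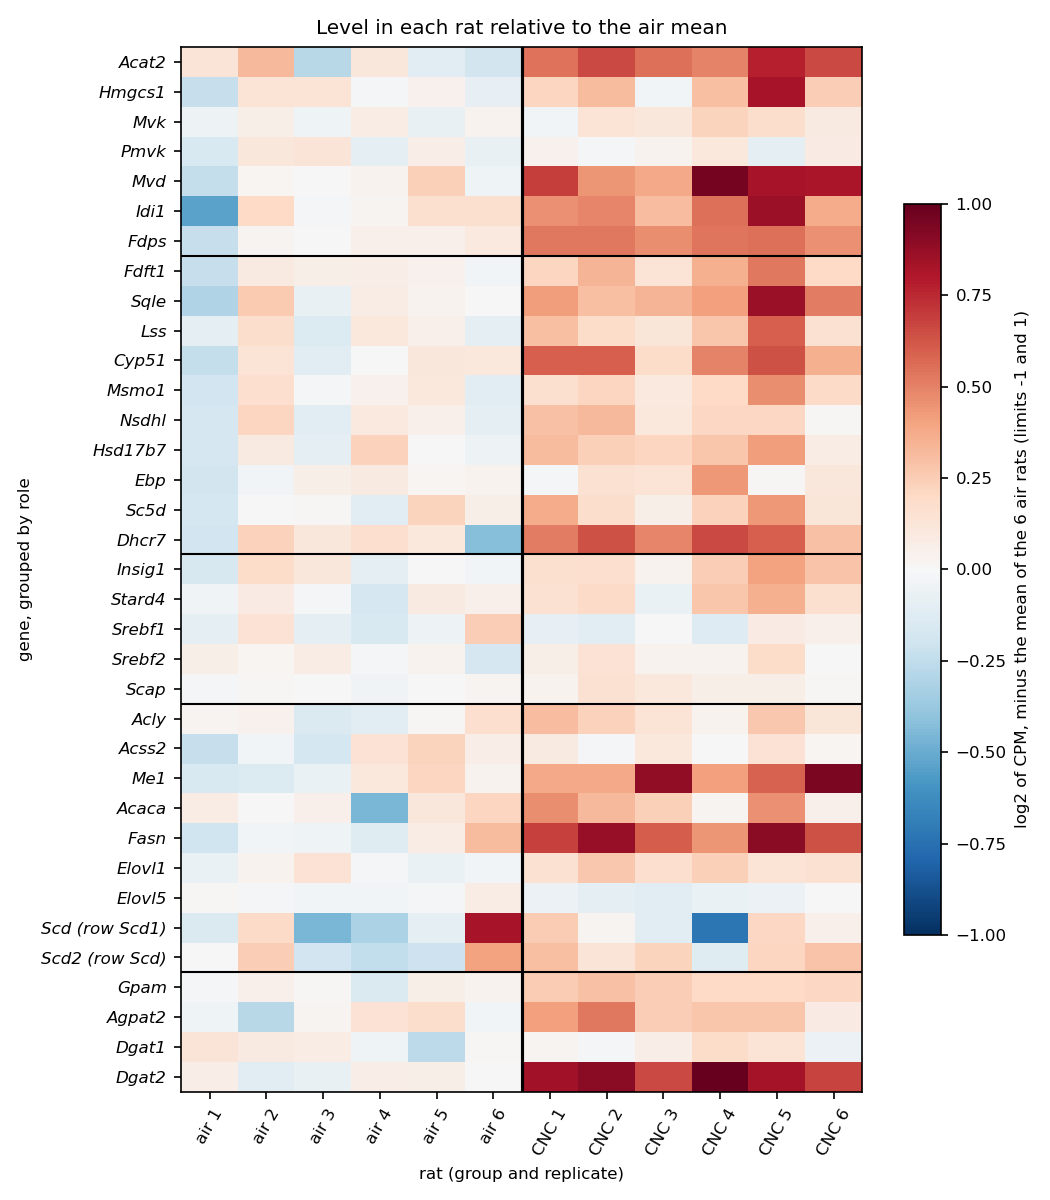
Level of each tested gene (rows, grouped by role) in each of the 12 rats (columns), as log2 CPM minus the mean of the 6 air rats. Air replicate 1 is blue across most sterol enzymes and CNC replicate 5 is the darkest red, from -0.19 to 0.51 in their branch means. In the block of SREBP pathway genes, Srebf1, Srebf2 and Scap are pale throughout.

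Insig1 and Stard4 are themselves classic SREBP target genes. Insig1, which retains the SREBP and Scap complex in the endoplasmic reticulum, ran from 71.6 to 90.9 CPM in air (median 79.4) and from 82.3 to 106 in CNC (median 92.6). It rose 1.16-fold (adjusted p = 0.0238), a call lost without air replicate 1 or CNC replicate 5 (0.0521 to 0.0556). Stard4, a cytosolic sterol carrier, ran from 35.3 to 42.3 CPM in air (median 40.1) and from 38.0 to 50.7 in CNC (median 44.8), a 1.13-fold rise at adjusted p = 0.0498. The Stard4 call stood at the threshold and was lost on leaving out any rat other than air replicate 5 or CNC replicate 3 (0.0548 to 0.109), and under DESeq2 size factors, upper-quartile scaling and limma-voom among others (0.0536 to 0.32).

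The regulators upstream of both branches showed no change past the test. Srebf2, the SREBP gene that chiefly drives sterol synthesis, ran from 204 to 241 CPM in air (median 234) and from 229.7 to 261 in CNC (median 237), a log2 fold change of 0.08 ± 0.04 (SE, adjusted p = 0.229). Srebf1, which chiefly drives fatty acid synthesis, had medians of 111 and 113 CPM and a log2 fold change of -0.04 ± 0.06 (SE, adjusted p = 0.737). Scap had medians of 86.4 and 89.8 CPM, with 5 of 6 CNC rats above the air range (adjusted p = 0.0989). SREBPs are activated by cleavage of the protein, which was not measured here.

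In the fatty acid branch 7 of 13 tested enzymes rose, with a median log2 fold change of 0.19. Fasn, the fatty acid synthase, ran from 769.7 to 1106 CPM in air (median 865) and from 1200.1 to 1652 in CNC (median 1399.8). Every CNC rat lay above every air rat, and the rise was 1.61-fold (log2 fold change 0.69 ± 0.09 SE, adjusted p = 4.2e-05). Me1, the cytosolic malic enzyme that supplies NADPH, ran from 32.6 to 41.9 CPM in air (median 35.9) and from 46.9 to 69.5 in CNC (median 51.4), a 1.53-fold rise without overlap (log2 fold change 0.61 ± 0.10 SE, adjusted p = 0.000503). With either covariate of circadian clock genes described further on, the Me1 log2 fold change was 0.35 to 0.37 and the call was lost (adjusted p from 0.14 to 0.303). The highest Me1 levels were in CNC replicates 3 and 6, at 67.0 and 69.5 CPM, which were not high in the sterol enzymes.

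The enzymes that feed Fasn moved less. Acly, which splits citrate to acetyl-CoA, ran from 288 to 358 CPM in air (median 323) and from 327 to 395 in CNC (median 363), a 1.14-fold rise (adjusted p = 0.0236) that was lost without CNC replicate 1 or 2 (0.0502 to 0.0514). Acaca, acetyl-CoA carboxylase, makes the malonyl-CoA that Fasn uses. It had a median of 60.2 CPM in air (41.9 to 66.8) and 69.9 in CNC (58.5 to 79.2), with adjusted p = 0.0713. The Acaca difference passed without air replicate 6 or CNC replicates 4 or 6 (0.0406 to 0.049). Acss2, which makes acetyl-CoA from acetate, had medians of 19.4 and 19.9 CPM (adjusted p = 0.662).

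Elongases and desaturases did not move as a block. Elovl1, an elongase of very long chains, ran from 143 to 166 CPM in air (median 148) and from 165 to 181 in CNC (median 168), a 1.14-fold rise (adjusted p = 0.00275). Elovl5, which elongates polyunsaturated fatty acids, had medians of 250.3 and 242 CPM and a log2 fold change of -0.07 ± 0.03 (SE, adjusted p = 0.13). Scaled by library size alone it was called lower (adjusted p = 0.0409), where 14.3% of all tested genes fell. The desaturases varied widely among rats of the same group. Scd (row Scd1) ran from 371 to 904 CPM in air (median 469) and from 308 to 606 in CNC (median 524), a log2 fold change of -0.08 ± 0.20 (SE, adjusted p = 0.814). Scd2 (row Scd) ran from 1015 to 1593 CPM in air (median 1128) and from 1108 to 1485 in CNC (median 1400.2), with adjusted p = 0.319. A single air rat, replicate 6, held the highest level of both desaturases, above every CNC rat.

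Among the glycerolipid enzymes 3 of 4 rose. Dgat2, which adds the last acyl chain in triglyceride synthesis, ran from 33.6 to 38.1 CPM in air (median 37) and from 57.4 to 75.6 in CNC (median 64.9). Its rise of 1.78-fold was the largest among the 36 genes (log2 fold change 0.84 ± 0.06 SE, adjusted p = 6.82e-07). Dgat1 encodes an unrelated enzyme of the same reaction. It had medians of 23.4 and 23.5 CPM, overlapping ranges and a log2 fold change of 0.05 ± 0.07 (SE, adjusted p = 0.626). The difference between the fold changes of Dgat2 and Dgat1 was not tested.

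Gpam and Agpat2 act earlier in glycerolipid synthesis. Gpam, the mitochondrial acyltransferase that starts it, ran from 136 to 156 CPM in air (median 152) and from 172 to 184 in CNC (median 175). The groups did not overlap and the rise was 1.17-fold (log2 fold change 0.23 ± 0.04 SE, adjusted p = 0.000229). Agpat2, which makes phosphatidic acid, ran from 10.1 to 13.9 CPM in air (median 12.3) and from 13 to 17.7 in CNC (median 14.9), a 1.24-fold rise (adjusted p = 0.0178) with 5 of 6 CNC rats above the air range.

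**Figure D3:**
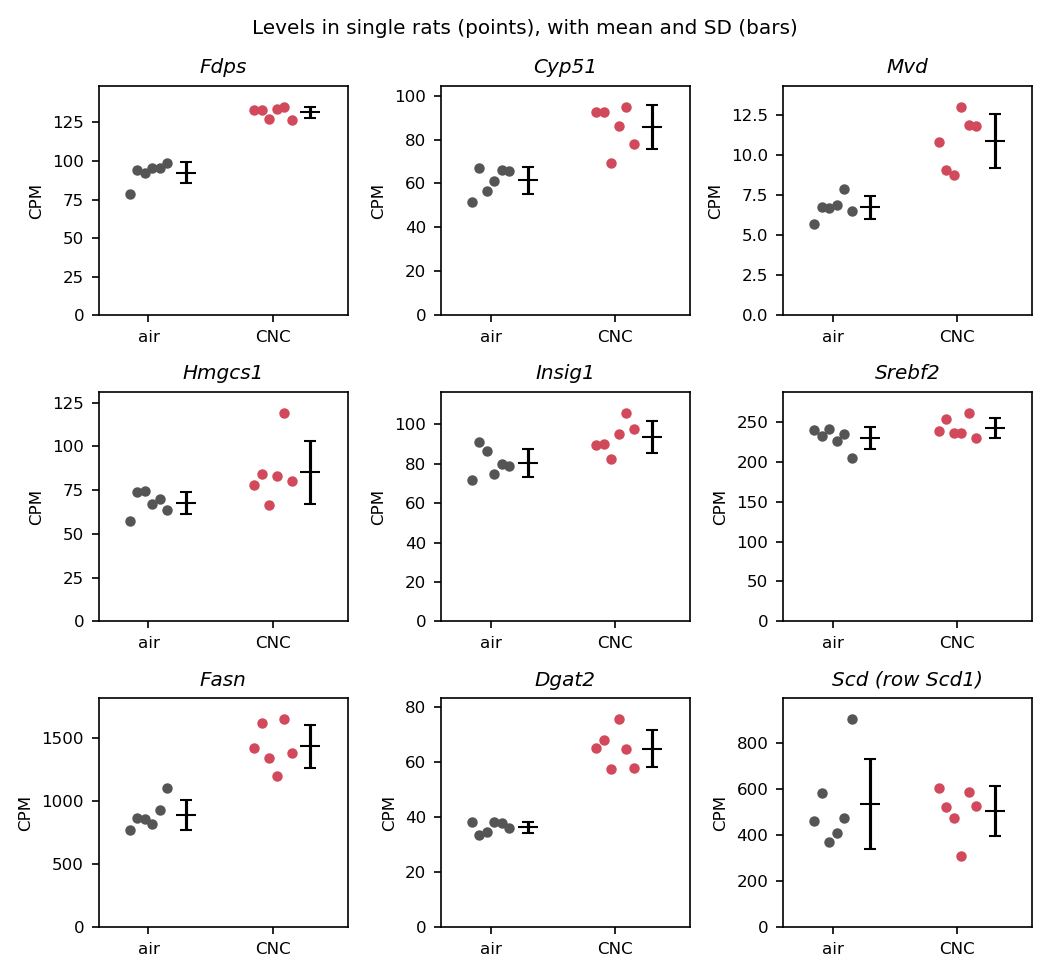
CPM of 9 of the genes in each rat (points), with mean and SD beside each group (bars) and axes that start at 0. Fdps, Cyp51, Mvd, Fasn and Dgat2 show no overlap between air and CNC, Hmgcs1 shows CNC replicate 5 apart at 119 CPM, and Srebf2 and Scd (row Scd1) overlap.

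Set sterol branch against fatty acid branch, both had a positive median in CNC relative to air. The median log2 fold change was 0.30 over the 17 sterol enzymes and 0.19 over the 13 tested enzymes of the fatty acid branch, a gap of 0.11. It was 0.0254 without CNC replicate 5, 0.063 without air replicate 1 and 0.0032 without both. It was 0.0529 without air replicate 6 and 0.0721 without CNC replicate 4. With the mean of circadian clock genes as a covariate it was 0.0555. With their first principal component it was -0.0193. In other fits it was larger, up to 0.136 with 1 rat left out and up to 0.16 among the other alternatives. A different measure, the gap between the branch means of a single rat, varied by an SD of 0.126 among rats of the same group. It ran from -0.20 to 0.13 in air and from -0.04 to 0.24 in CNC, so the groups overlapped in it. That SD is a spread between rats and not the error of the gap of 0.11 between medians. All 17 sterol enzymes had a positive fold change, from 0.02 to 0.69 on the log2 scale, whereas those of the fatty acid branch ran from -0.08 to 0.84 and 11 of 13 were positive.

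The rats did not keep the same order in the branches. Air replicate 6 was the highest air rat in 6 of the 13 fatty acid branch genes (Acly, Acaca, Fasn, Elovl5 and both desaturases), and in the sterol enzymes its mean was -0.04. CNC replicate 4 was the lowest CNC rat in 6 of the 13 (Acly, Acaca, Fasn, Gpam and both desaturases), while its sterol mean of 0.39 was exceeded only by CNC replicate 5. In the fatty acid branch the means ran from -0.08 to 0.16 in air and from 0.15 to 0.33 in CNC. Thus air replicate 6, at 0.16, lay just above CNC replicate 4, at 0.15, whereas the sterol means did not overlap.

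**Figure D4:**
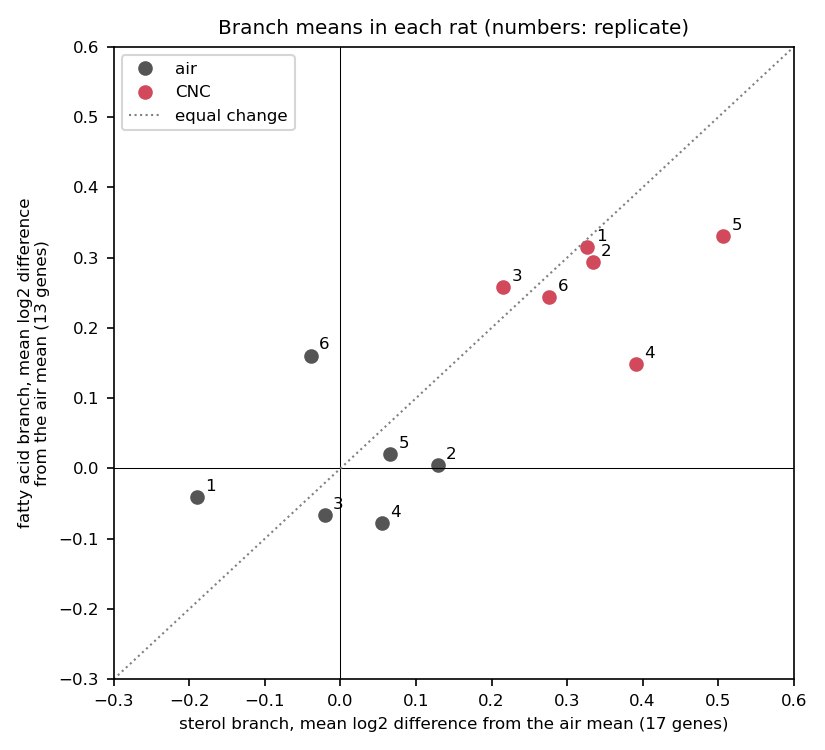
Mean log2 difference from the air mean over the 17 sterol enzymes (x axis) and the 13 tested fatty acid branch enzymes (y axis), with 1 point per rat and the replicate number beside it. The CNC rats lie to the right of all air rats (0.22 to 0.51 against -0.19 to 0.13), and air replicate 6 and CNC replicate 4 meet on the y axis near 0.16 and 0.15.

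SREBPs bind sterol regulatory elements close to the start of a gene, commonly beside a site of the factor NF-Y, which reads CCAAT. RefSeq promoter windows of 300 bases (250 before to 50 after the start, build GRCr8) were at hand for 27 of the 36 genes, as 28 windows. Pmvk, Fdft1, Sqle, Stard4, Acaca, Fasn, Elovl6, Dgat1 and Dgat2 had none. On either strand, CCAAT stood in 20 of the 28 windows (71.4%) and in 37.5% of all 33469 windows. It stood in 11 of 14 windows of sterol enzymes (78.6%) and in 5 of 9 of the fatty acid branch (55.6%). Genes that were not called also held it, namely Mvk, Nsdhl, Ebp, Srebf1, Srebf2, Acss2, Elovl5 and Scd2. The windows of the called genes Acat2, Cyp51, Dhcr7, Me1, Elovl1 and Agpat2 did not. Whether CCAAT goes with the rise was not tested. The GC box GGGCGG stood in 21 of 28 windows (75.0%) and in 33.1% of all. TCACNCCAC, a core of the sterol regulatory element, was in 0 of 28 windows and in 1.12% of all, a share so low that 0 of 28 says little. With 1 mismatch allowed it was in 12 of 28 (42.9%) and in 23.7% of all, for example as gaggcgtga before Cyp51 and as tcaccccat before Srebf2. Matches of the different motifs were counted separately and may overlap. They describe letters in these windows and not bound sites.

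The 200 bases before the start are shown for the called genes of smallest adjusted p whose stretch holds CCAAT, 4 from the sterol branch and 2 from the fatty acid branch. Capitals mark CCAAT or its complement ATTGG, and each reads 5′ to 3′ on the strand of the gene, which is the minus strand for all 6.
Fdps, chr2:176804817-176805016: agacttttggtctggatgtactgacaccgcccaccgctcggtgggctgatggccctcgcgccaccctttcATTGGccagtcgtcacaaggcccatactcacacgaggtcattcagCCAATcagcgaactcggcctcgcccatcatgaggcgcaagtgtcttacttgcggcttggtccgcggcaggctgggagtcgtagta
Mvd, chr19:67414975-67415174: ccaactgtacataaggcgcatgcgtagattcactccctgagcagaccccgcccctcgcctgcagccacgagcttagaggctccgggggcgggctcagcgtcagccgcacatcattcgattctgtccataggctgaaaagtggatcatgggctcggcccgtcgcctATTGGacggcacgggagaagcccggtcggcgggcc
Idi1, chr17:66547525-66547724: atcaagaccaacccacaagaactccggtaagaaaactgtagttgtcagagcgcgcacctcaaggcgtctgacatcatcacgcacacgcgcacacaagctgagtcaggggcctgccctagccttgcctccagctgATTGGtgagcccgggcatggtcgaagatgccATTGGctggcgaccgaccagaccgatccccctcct
Lss, chr20:12118231-12118430: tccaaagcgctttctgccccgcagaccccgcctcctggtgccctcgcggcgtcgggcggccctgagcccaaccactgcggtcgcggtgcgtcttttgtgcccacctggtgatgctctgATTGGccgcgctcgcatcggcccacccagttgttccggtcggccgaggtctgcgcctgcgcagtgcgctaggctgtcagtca
Gpam, chr1:264175912-264176111: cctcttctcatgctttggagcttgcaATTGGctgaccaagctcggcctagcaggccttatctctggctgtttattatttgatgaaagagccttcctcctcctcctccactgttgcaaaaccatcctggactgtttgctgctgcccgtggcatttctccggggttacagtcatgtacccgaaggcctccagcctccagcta
Acly, chr10:85963632-85963831: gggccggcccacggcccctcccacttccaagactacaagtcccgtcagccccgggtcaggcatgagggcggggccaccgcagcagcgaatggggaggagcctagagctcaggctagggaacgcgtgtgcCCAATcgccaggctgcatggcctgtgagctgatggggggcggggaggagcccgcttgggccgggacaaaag
Fdps and Idi1 each hold CCAAT in 2 places in this stretch. Of the 6 genes, Fdps, Mvd, Idi1 and Gpam had separate groups, and Lss and Acly overlapped.

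Further genes of the same pathways, outside the 36, were counted from lists. Of 19 tested genes of sterol sensing, SREBP processing and isoprenoid side branches, 2 rose (10.5%) and 1 fell. The share that rose was not above the 13.2% of all tested genes. The median log2 fold change of this list was 0.02. Stard3, a late endosomal sterol carrier, rose 1.21-fold (adjusted p = 0.000241). Aacs, which returns ketone body carbon to synthesis, rose 1.17-fold (adjusted p = 0.025, or 0.0505 without air replicate 3).

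Of 33 further tested genes of fatty acid and glycerolipid metabolism, 9 rose (27.3%) and 2 fell, with a median of 0.08. Of all tested genes, 13.2% rose and 11.4% fell. Acsl4, which activates arachidonic acid, rose 1.52-fold, from a median of 188 to 286 CPM (adjusted p = 5.06e-05). Mlxipl, the carbohydrate-responsive factor that also drives lipogenic genes, rose 1.59-fold, from a median of 6.70 to 10.5 CPM (adjusted p = 0.000291). The fatty acid desaturase Fads1 rose 1.17-fold (adjusted p = 0.00129) and Hsd17b12, a reductase of chain elongation, rose 1.16-fold (adjusted p = 0.00229). In each of these 4 genes the groups did not overlap.

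Of 12 genes of cholesterol transport and the liver X receptors, 8 rose (66.7%, against 13.2% of all tested genes) and 0 fell, with a median of 0.20. Lipa, the lysosomal acid lipase, rose 1.42-fold (adjusted p = 7.7e-06), and Soat1, which esterifies cholesterol for storage, rose 1.37-fold (adjusted p = 1.09e-05). The phospholipid acyltransferase Lpcat3 rose 1.27-fold (adjusted p = 1.42e-05) and the lysosomal sterol carrier Npc2 rose 1.51-fold (adjusted p = 3.25e-05). In the same list Abcg1 rose 1.38-fold (adjusted p = 0.000181), while Abca1 (adjusted p = 0.889) and Mylip (adjusted p = 0.628) were not called. Srebf1, which liver X receptors induce together with Lpcat3, was not called either (adjusted p = 0.737). The activity of these receptors was not tested.

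Markers of alveolar type 2 cells and of macrophages were higher in CNC. Of all tested genes, 13.2% rose and 11.4% fell, which are the shares to set beside the marker counts here. Of 10 alveolar type 2 cell markers, 8 rose and 0 fell, with a median log2 fold change of 0.38. Sftpb (adjusted p = 0.964) and Etv5 (adjusted p = 0.917) were not called. The summed level of the 10 markers ran from 23526 to 30698 CPM in air and from 31206 to 38254 in CNC. These lung markers were abundant in all 12 libraries. Of 9 tested markers of alveolar macrophages, 6 rose and 1 fell, with a median log2 fold change of 0.71. Their summed level was 753.8 to 882 CPM in air and 1112 to 1450.2 in CNC, and Marco had 0 counts in all 12 libraries. Neutrophil markers summed to 165 to 269 CPM in air and 436 to 699 in CNC, with 6 of 9 higher and 1 lower. All 10 endothelial markers fell, from a summed level of 4841 to 5390.3 CPM in air to 3893 to 4316 in CNC. The part of these markers in the rise of the synthesis genes was not tested.

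Adipocytes, which also express Fasn, Scd, Gpam, Agpat2 and Dgat2, can be present in a lung piece. Of their 6 tested markers 3 were lower (Lipe, Fabp4 and Tusc5) and 1 was higher (Cidea, 1.91-fold). Of all tested genes, 11.4% were lower and 13.2% higher. Adipoq, Plin1 and Lep had too few counts to be tested. All 13 listed markers summed to 137 to 166 CPM in air and 97.2 to 121 in CNC. Most of that sum was Lipe. The defining marker Adipoq had 51 counts in air replicate 4 and 0 to 8 in each of the other libraries, Plin1 had 21 in that rat and 0 to 2 elsewhere, and Ucp1 had 0 in all 12. With the mean of the adipocyte markers as a covariate, 14 of the 35 genes rose in place of 22 (9.79% of all tested genes). The Hmgcs1, Idi1, Lss, Msmo1, Sc5d, Insig1, Stard4 and Acly calls were those lost. The median log2 fold change of the sterol enzymes was 0.30 with and without this covariate, their standard errors were a median of 1.28 times as large, and 34 of the 35 genes kept their sign.

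Genes of the circadian clock, which also times sterol and fatty acid synthesis, differed between the groups. Of 14 tested clock genes 7 were higher and 5 lower in CNC, where 13.2% of all tested genes were higher and 11.4% lower. Dbp, a clock output factor, ran from 9.29 to 34.2 CPM in air and from 31.6 to 83.9 in CNC, and Arntl, a core clock factor, from 34.4 to 56.6 and from 18.7 to 32.1. The time of day at which the rats were killed is not given in the sources used here, and group and clock state cannot be told apart in this design. With the mean of the clock genes as a covariate, 13 of the 35 genes rose (6.03% of all tested genes), 8 of them sterol enzymes and 5 of the fatty acid branch. The median log2 fold change was then 0.37 over the sterol enzymes and 0.31 over the fatty acid branch, and standard errors were a median of 1.57 times as large in both. Of the 35 genes, 31 kept their sign. Clock genes that rose and clock genes that fell partly cancel in such a mean, so it follows the state of the clock incompletely. With the first principal component of the clock genes, a fit added after the data were seen, 8 rose (3.69% of all). Of these, 2 were sterol enzymes (Fdps and Cyp51) and 6 were of the fatty acid branch.

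With the first component, standard errors over the sterol enzymes were a median of 1.99 times those without it, and their median log2 fold change was 0.36 in place of 0.30. In the fatty acid branch the median was 0.38 in place of 0.19, and 31 of the 35 genes kept their sign. Single estimates moved either way, from 0.69 to 0.48 in Mvd, from 0.51 to 0.44 in Dhcr7, from 0.61 to 0.37 in Me1, and from 0.59 to 0.65 in Acat2. Acaca was called with either covariate (log2 fold change 0.58 and 0.80, adjusted p from 0.00506 to 0.00749), and Scd2 (row Scd) with the component (0.62, adjusted p = 0.0377). The rats with the highest Dbp of their groups, air replicate 4 at 34.2 CPM and CNC replicate 4 at 83.9, also had the lowest Acaca of their groups, at 41.9 and 58.5 CPM. The part of the clock in these levels was not tested further.

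At an adjusted p under 0.01, 13 of the 35 genes rose, against 8.28% of all tested genes. Of the 22 called genes, Fdps, Cyp51, Fasn, Gpam and Dgat2 kept their call in all 28 alternative fits, 14 kept it when any single rat was left out, and all 22 kept their direction throughout.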

How the data were processed

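The authors deposited raw counts per gene symbol for 12 libraries, 1 per rat, without normalization. Per the labels' protocols, the stranded mRNA libraries went through 12 cycles of PCR, so reads are not independent molecules. Tools listed in the submitters' processing notes, with no role given, are HTSeq 0.11.2, HISAT2 2.1.0, SAMtools 1.8, Trimmomatic 0.35, bcl2fastq 2.19 and Cufflinks. The table's name gives the build Rnor6, while annotation and strand setting were not given in the sources used here, so overlapping genes and close copies are uncertain.

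Counts were tested in R 4.3.3 with edgeR 4.0.16 (filterByExpr with a minimum count of 10, TMM, glmQLFit, glmQLFTest), CNC against air, with Benjamini-Hochberg adjustment over all 15019 tested genes and a threshold of 0.05. The procedure was tested on simulated data. The standard error is the log2 fold change divided by the square root of F. CPM are TMM-scaled, and log2 CPM use a prior count of 2. Symbols were matched through RefSeq (GRCr8), whose promoter windows were searched for motifs. Every called member is given with its range, and up to 4 called genes of smallest adjusted p from each further list. Abcg1, Abca1 and Mylip are given besides. The members, lists and settings were chosen with earlier results of these data known. The p-values set the difference between the groups against the spread between these rats. The labels do not say whether cages, chambers or other units were shared. A unit shared within a group cannot be told apart from CNC by these p-values. Pairs of libraries within a group differed by 2.60 to 7.93 in chi-square per degree of freedom, so none was a repeat. Alternatives used DESeq2 1.42.0, limma 3.58.1 and sva 3.50.0, and figures Python 3.11.15 with matplotlib 3.10.9. A called gene of the further lists is counted but not reported here, and other genes of these pathways were not analysed here.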

Additional observations from a re-analysis of the deposited data

Results flagged for a closer look

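A rat far from the other 5 of its group was seen in 9 of the 70 sets of 6 levels (35 genes in each group). Chance gives about 1 in 20 for a single set. The sets share the same rats and are not independent, so an excess over chance cannot be judged from this count. CNC replicate 5 was the highest by a wide gap in 4 sterol enzymes. It had 119.1 CPM of Hmgcs1 where the next rat had 84.0, 51.7 of Sqle (next 40.5), 34.7 of Lss (next 28.3) and 57.8 of Msmo1 (next 48.8). Air replicate 1 was the lowest by a wide gap in Idi1, at 19.5 CPM where the next rat had 27.9, and in Fdps, at 78.7 (next 92.4). In Ebp, CNC replicate 4 stood at 25.1 CPM (next 20.7). Acaca was lowest in air replicate 4, at 41.9 CPM (next 57.5), and Elovl5 was highest in air replicate 6, at 265.8 CPM (next 254).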

How the results depend on the processing

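Members called higher numbered 22 of 35, 15 to 23 when 1 rat was left out and 8 to 25 over 19 other alternatives. There were 13 at an adjusted p under 0.01, 13 with the clock gene mean and 8 with the clock first component as covariate, 14 with the adipocyte marker mean and 13 without air replicate 1 and CNC replicate 5 together. Sterol enzymes called (13) numbered 8 to 14 with 1 rat left out, 8 at 0.01, 8 with the clock mean, 2 with the clock component, 8 with adipocyte markers and 8 without that pair of rats. Fatty acid branch calls (7) numbered 6 to 8 with 1 rat left out and 5 to 8 otherwise. With library size alone 1 member (Elovl5) was lower. Over all genes, 3691 calls became 2146 at 0.01, 1566 with the clock mean and 882 with the component. The gap between branch medians, 0.11, turned to -0.0193 with the component and reached 0.16 among the other alternatives. Leaving out 1 rat gave 0.0254 to 0.136. The loosely matched sterol element was in 42.9% of members' windows and the exact one in 0. Why these values moved was not tested, beyond the fewer samples or stricter threshold where those were the change. No paired analysis was possible because the labels number the rats without repeats. Genes with a few counts per library, such as Elovl6, cannot be judged at this depth.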

Other observations

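Air replicate 4 held counts of fat genes that the other libraries nearly lacked. Thrsp, a lipogenic gene abundant in fat and liver, had 16 counts there and 0 to 2 in each of the other 11 libraries, and Lep, the leptin gene, had 18 where the others had 0 to 4. The same rat had the highest summed heart muscle markers, at 413 CPM, where the 12 rats ran from 12.2 upward.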
